A study of Mus musculus with 18 samples.

Results

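Zbtb16, Etv5, Maf, Il1r1, Cd27 and Sh2d1a are 6 genes that mark or help build gamma-delta and innate-like T cells, and their levels were followed in mouse thymus cells after an antibody against DLL4. The members are the probes whose gene name in the scanner files equals one of these symbols, which gave 11 of 43426 probes. RNA from C57BL/6 thymus was hybridised to 18 one-colour Agilent arrays, 1 sample per array, 2 weeks after the mice had received anti-DLL4 or an isotype control antibody. Total thymocytes gave 3 anti-DLL4 and 4 isotype samples. Double-negative (DN) cells, which carry neither CD4 nor CD8, gave 3 anti-DLL4 and 3 isotype samples, and DN1 cells, the CD44-positive and CD25-negative fraction of DN cells, gave 3 anti-DLL4 and 2 isotype samples. All animals were of the same strain and every group had received an antibody. The submitters' design text counts 3 isotype samples of thymocytes, but 4 are labelled so and none was dropped. It names 4 animals per antibody, and no label ties a sample to an animal, so samples of different populations may share animals and the p-values measure the spread between these samples only.

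DLL4 is the ligand through which thymic epithelium activates Notch1 and holds incoming progenitors to the T lineage. Gamma-delta T cells branch off at the DN stages, whereas NKT cells, MAIT cells and other innate-like T cells acquire a memory-like effector state while still in the thymus. PLZF, the zinc-finger factor encoded by Zbtb16, directs that state, and the transcription factors c-MAF and ETV5 (genes Maf and Etv5) act in the interleukin-17-producing branch. SAP, the adaptor encoded by Sh2d1a, carries signals from SLAM-family receptors that NKT-cell development needs. The co-stimulatory receptor CD27 marks interferon-gamma-producing gamma-delta cells, and IL1R1, the signalling receptor for interleukin-1, is found on interleukin-17-producing ones.

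Levels are log2 of the processed Cy3 signal minus the 75th percentile of that array's non-control spots, so 0 is the signal of a probe brighter than most. Differences are anti-DLL4 minus isotype on the same log2 scale, from 1 limma model over all 18 arrays, and are given relative to the median difference of all probes tested, which lay at -0.42 in thymocytes, -0.65 in DN cells and -0.03 in DN1 cells. All p-values, also those between populations, test the difference before that median was subtracted, so they do not test the printed difference itself. Before subtraction, Sh2d1a probe 1 differed by -1.19 in thymocytes (printed below as -0.77) and Cd27 by -0.93 in DN cells (printed as -0.29). A probe counted as called where its p, adjusted by the Benjamini-Hochberg method over all probes tested, was under 0.05. A gene with several probes was represented by its brightest, and no probe's level is set against another's. The arrays differed widely in brightness: the 75th percentile ranged from 442.8 to 4295.4 in anti-DLL4 thymocytes and from 524 to 2468.1 in isotype thymocytes. It ranged from 741.3 to 1076.8 in anti-DLL4 DN cells and from 260.2 to 675.5 in isotype DN cells, and from 977.7 to 3641.7 in anti-DLL4 DN1 cells and from 1831.7 to 2643.1 in isotype DN1 cells. Between 59.9% and 84% of probes were well above background on an array. Replicates correlated at 0.805 to 0.955 across probes, lowest among isotype DN arrays.

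The sort markers followed their labels in part. Cd44, the marker that defines DN1 cells, was higher in isotype DN1 than in isotype DN cells by 3.04 ± 0.53 (SE, limma adjusted p = 0.0435). Cd8a differed by -4.13 ± 0.88 between isotype DN cells and isotype thymocytes (adjusted p = 0.0518) and Cd8b1 by -2.18 ± 0.80 (adjusted p = 0.225). Il2ra, which encodes CD25, differed by -2.03 ± 0.80 between isotype DN1 and isotype DN cells (adjusted p = 0.133). After anti-DLL4, Cd44 did not set DN1 cells (1.59 to 2.34) apart from DN cells (1.66 to 2.09). Il2ra ranged from 0.02 to 0.49 in anti-DLL4 DN1 cells, above the -2.6 to -0.3 of isotype DN1 cells, although both are labelled CD25-negative. The Cd4 probe was dim even in isotype thymocytes, at -3.34 to -2.43, and gave no check. Cd8b1 lay between 6.82 and 7.14 in isotype DN cells and between 6.35 and 6.59 in isotype DN1 cells, so CD8 transcripts were well measured in cells sorted as lacking the protein. After anti-DLL4 Cd8b1 was lower, between 3.64 and 4.09 in DN cells and between 1.59 and 4.96 in DN1 cells. Cd8a ranged from -1.46 to 1.4 in anti-DLL4 and from 2.22 to 3.79 in isotype DN cells. In DN1 cells Cd8a ranged from -1.58 to 2.71 after anti-DLL4 and from 3.6 to 4.59 after isotype. The part of this CD8 signal in the member differences was not tested. In bulk samples, fewer cells of a type and less RNA per cell cannot be told apart.

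**Figure D1:**
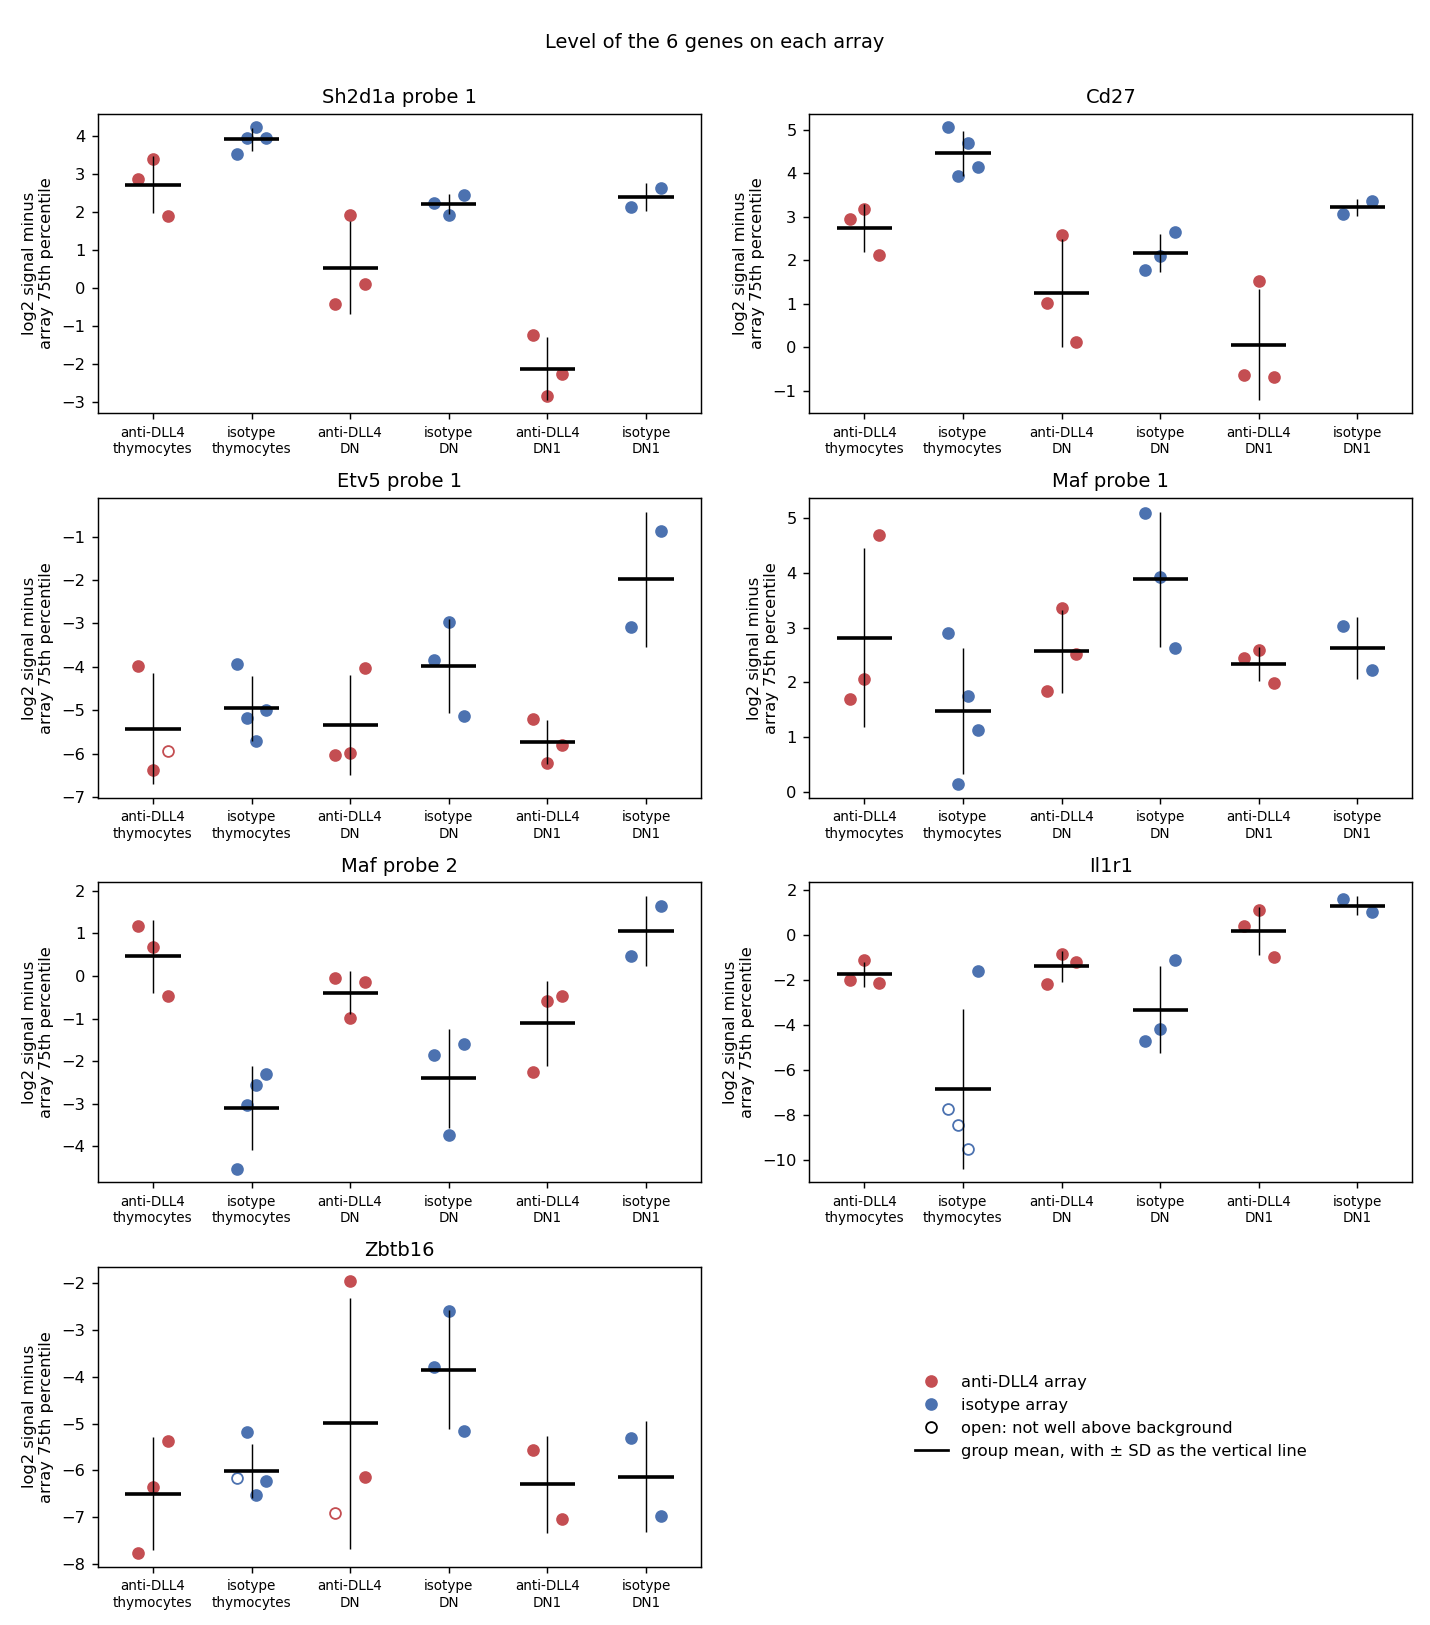
Log2 signal minus the array's 75th percentile (vertical axis) on each array for the brightest probe of the 6 genes and for Maf probe 2, by group along the horizontal axis. Filled points were well above background, open points were not, horizontal lines are group means and vertical lines ± SD; Sh2d1a lies between -2.86 and -1.24 in anti-DLL4 DN1 cells and between 2.12 and 2.64 in isotype DN1 cells.

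Among the 6 genes, only Sh2d1a passed the test by its brightest probe in any of the 3 treatment comparisons, and it did so in DN1 cells, where it was 22.2-fold lower after anti-DLL4. The array holds 3 probes of Sh2d1a, and the first pair overlap by 40 of their 60 bases, so they are not independent readings. The stretches below show that overlap, with 20 of the shared bases in capitals, and the probe that disagreed in signal. They are the 30 bases of each probe on chromosome X of the mm8 build, plus strand, at chrX:38766360-38766389, chrX:38766370-38766399 and chrX:38767626-38767655. Whether these positions are coding or untranslated was not annotated here for mm8.
Sh2d1a probe 1: tctgcctgaaTGCACCATGAAGAAGAGTAA
Sh2d1a probe 2: TGCACCATGAAGAAGAGTAActcactctgt
Sh2d1a probe 3: tatgtaagtgaagttcccaatatgtaggta

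In DN1 cells, Sh2d1a probe 1 read -1.24, -2.86 and -2.28 on the 3 anti-DLL4 arrays, against 2.12 and 2.64 on the 2 isotype arrays. Probe 2 read -2.03, -3.41 and -3.12 in anti-DLL4 DN1 cells, against 1.47 and 1.81 in isotype DN1 cells. On both probes every anti-DLL4 array lay more than 3 log2 units below every isotype array. The difference was -4.47 ± 0.70 for probe 1 and -4.46 ± 0.72 for probe 2 (SE, limma adjusted p = 0.0289 each). These are 2 of 11 member probes called lower, where 0.0655% of all 36661 probes tested in DN1 cells were called lower and 0.109% in either direction, and they stand for 1 of 6 genes. Probe 3 was dim: it was well above background on 1 of 3 anti-DLL4 and 2 of 2 isotype DN1 arrays, and its difference of -2.43 ± 1.19 had the same sign but did not pass (adjusted p = 0.985).

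The direction of the Sh2d1a difference held under each of the following settings while its call did not. Within a slide, the anti-DLL4 and isotype DN1 arrays that shared it differed by -4.62 and by -4.79 on probe 1. Without anti-DLL4 DN1 replicate 2 the difference was -4.24 (adjusted p = 0.0538), without replicate 3 it was -4.46 (adjusted p = 0.0766), without isotype DN1 replicate 1 it was -4.78 (adjusted p = 0.136), and without isotype DN1 replicate 2 it was -4.13 (adjusted p = 0.314). With normexp background correction it was -3.53 (adjusted p = 0.309), and a fixed slide effect in the model gave -4.50 (adjusted p = 0.152).

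Summed marker signals of several cell types differed between the antibodies in DN1 cells, with no marker gene called. The summed signal of 10 T-cell genes, in units of the array's 75th percentile, ranged from 133 to 173 in anti-DLL4 DN1 cells and from 347 to 424 in isotype DN1 cells. That of the 4 probes of gamma-delta T-cell receptor genes ranged from 21.4 to 38.2 in anti-DLL4 and from 86.8 to 97.6 in isotype DN1 cells. The 9 NK-cell and innate lymphoid genes summed to 43.6 to 77.9 in anti-DLL4 and 111 to 118 in isotype DN1 cells, and the 10 macrophage and monocyte genes to 51.1 to 73.6 in anti-DLL4 and 137 to 183 in isotype DN1 cells. The 8 B-cell genes summed to 381 to 613 in anti-DLL4 and 230 to 396 in isotype DN1 cells, ranges that overlap. Each of the T-cell and NK-cell genes was well above background on some array of each group. Of the 4 receptor probes, all of gamma-chain genes, Tcrg-V5 was not well above background on any anti-DLL4 DN1 array. The median difference was -1.97 over the T-cell genes and -2.47 over the receptor probes, against 0 for all probes by construction. Their part in the Sh2d1a result was not tested.

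In the other populations Sh2d1a leaned the same way without passing the test. It read 2.86, 3.38 and 1.90 in anti-DLL4 thymocytes, against 3.52, 3.94, 4.23 and 3.94 in isotype thymocytes. It read -0.43, 1.91 and 0.10 in anti-DLL4 DN cells, against 2.23, 1.92 and 2.44 in isotype DN cells. The groups did not overlap in either population, by a margin of 0.01 in DN cells. The differences were -0.77 ± 0.59 in thymocytes (adjusted p = 0.37) and -1.03 ± 0.63 in DN cells (adjusted p = 0.115). Within slides they ran both ways, 0.50, 0.20 and -2.67 in thymocytes and 0.61 in DN cells. The test of the difference between populations did not pass either: the DN1 effect minus the thymocyte effect was -3.69 ± 0.92 (adjusted p = 0.289) and minus the DN effect -3.44 ± 0.94 (adjusted p = 0.297).

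By level, Sh2d1a was ordered isotype thymocytes, anti-DLL4 thymocytes, isotype DN1, isotype DN, anti-DLL4 DN and anti-DLL4 DN1, with means of 3.91, 2.71, 2.38, 2.20, 0.52 and -2.13. Anti-DLL4 thymocytes overlapped isotype DN1 cells, which overlapped isotype DN cells, and the other steps in this order had no overlap. The distance between anti-DLL4 DN1 cells and anti-DLL4 thymocytes, -4.91 ± 0.63 on probe 1, was called (adjusted p = 0.00264), as was probe 2 at -4.91 ± 0.65 (adjusted p = 0.00324), in a comparison that called 0.423% of 36149 probes lower. Leaving out any 1 array kept that call for probe 1, with adjusted p of 0.00183 to 0.0268. A fixed slide effect in the model gave -5.55 and a model of these groups alone -4.91, neither of which passed (adjusted p = 0.0831 and 0.107).

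Cd27 followed Sh2d1a across the arrays, with Pearson's r of 0.87 over the 18 arrays, which share populations and scaling. Its single probe, at chr6:125198677-125198736 on the minus strand of mm8, read -0.64, 1.53 and -0.69 in anti-DLL4 DN1 cells, against 3.07 and 3.36 in isotype DN1 cells. All anti-DLL4 DN1 arrays lay below both isotype arrays, with anti-DLL4 replicate 2 the nearest. The difference of -3.12 ± 0.78, or 8.68-fold lower, did not pass over all probes (limma adjusted p = 0.217, unadjusted p = 0.000993). It was -1.19 and -3.92 within the 2 slides that hold both antibodies.

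In thymocytes Cd27 read 2.95, 3.17 and 2.13 after anti-DLL4, against 5.06, 3.93, 4.69 and 4.15 after isotype. The groups were separate, and the difference was -1.28 ± 0.65 (adjusted p = 0.235). In DN cells it read 1.03, 2.58 and 0.13 after anti-DLL4, against 1.78, 2.10 and 2.65 after isotype. Those groups overlapped, with a difference of -0.29 ± 0.70 (adjusted p = 0.376). Isotype thymocytes were highest for Cd27 at a mean of 4.45 and stood clear of isotype DN1 cells at 3.21. Below them each neighbour overlapped the next, through anti-DLL4 thymocytes at 2.75, isotype DN at 2.18, anti-DLL4 DN at 1.24 and anti-DLL4 DN1 at 0.07.

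**Figure D2:**
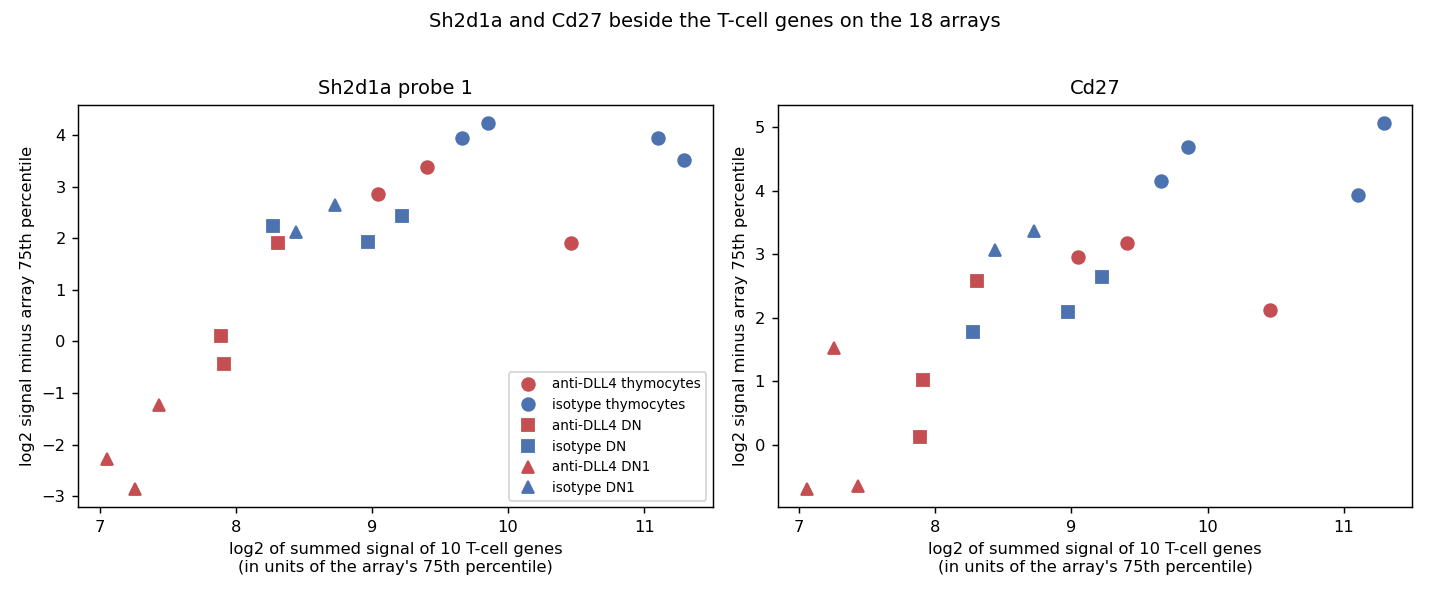
Log2 level of Sh2d1a probe 1 (left) and Cd27 (right) on the vertical axes against log2 of the summed signal of 10 T-cell genes, in units of the array's 75th percentile, on the horizontal axes, with 1 point per array, colour for antibody and shape for population. The 3 anti-DLL4 DN1 arrays, at T-cell sums of 133 to 173, have the lowest Sh2d1a levels, and the isotype thymocyte arrays, at 810 to 2510, the highest. Single arrays depart from that order, among them anti-DLL4 thymocyte replicate 3, with a T-cell sum of 1410 and Sh2d1a at 1.90. Isotype thymocyte replicate 1 has the highest sum, 2510, and the lowest Sh2d1a level of its group, 3.52.

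Il1r1 showed the widest spread within a group among the brightest probes of the 6 genes, an SD of 3.56 over the 4 isotype thymocyte arrays. Its probe lies at chr1:40260368-40260427 on the plus strand of mm8. In thymocytes it read -2.01, -1.10 and -2.13 after anti-DLL4, against -7.72, -8.43, -9.51 and -1.60 after isotype. The first 3 isotype arrays were not well above background and replicate 4 was as bright as the anti-DLL4 arrays, so the groups overlapped through that 1 array. The difference of 5.49 ± 1.41 did not pass (adjusted p = 0.0952). Without isotype thymocyte replicate 4 it was 7.31 with an adjusted p of 0.00264, and a fixed slide effect in the model gave 7.04 (adjusted p = 0.00733). Isotype thymocyte replicate 4 was hybridised on slide 6 with isotype DN replicate 3, and that slide holds no anti-DLL4 array. Within the 3 slides that hold both antibodies, none of which holds replicate 4, it was 6.87, 8.09 and 7.05. Since 3 of the 4 isotype readings were at background, the fitted size depends on the background signal of those arrays.

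In DN cells Il1r1 read -2.15, -0.84 and -1.18 after anti-DLL4, against -4.68, -4.17 and -1.09 after isotype, where replicate 3, the other array of slide 6, again matched the anti-DLL4 arrays. The difference was 2.57 ± 1.50 (adjusted p = 0.4). In DN1 cells it read 0.40, 1.13 and -0.96 after anti-DLL4, against 1.61 and 1.02 after isotype, which overlapped (difference -1.09 ± 1.68, adjusted p = 1). DN1 cells had the highest Il1r1 levels, with means of 0.19 after anti-DLL4 and 1.31 after isotype. Isotype DN1 cells were higher than isotype thymocytes by 8.47 ± 1.60 (adjusted p = 0.019), with the thymocytes measured on 1 of 4 arrays. That comparison called 2 of 11 member probes higher, the other being Maf probe 2, and 0.867% of 35279 probes. The Il1r1 call there was lost without isotype thymocyte replicate 2 (7.90, adjusted p = 0.051), isotype DN1 replicate 1 (8.27, adjusted p = 0.25) or isotype DN1 replicate 2 (8.70, adjusted p = 0.151), and in a model of these groups alone (8.47, adjusted p = 0.159).

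Maf was read by 3 probes that did not tell the same story. They lie on chromosome 8 of mm8, minus strand, and the first 30 bases of each, at chr8:118593714-118593743, chr8:118589843-118589872 and chr8:118591311-118591340, are printed because the result turns on which probe is read. The files name probe 1 through a cDNA clone and probes 2 and 3 through the RefSeq transcript.
Maf probe 1: tcggcctctccccccaacccttttgctctc
Maf probe 2: tgggtatgtgtagttcttgctataccatgg
Maf probe 3: acaagggccaaagatctgagcagcatactt

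In thymocytes Maf probe 2 read 1.17, 0.68 and -0.48 after anti-DLL4, against -4.52, -3.02, -2.57 and -2.31 after isotype. Every anti-DLL4 array lay above every isotype array. The difference of 3.98 ± 0.71, or 15.8-fold higher, was called (limma adjusted p = 0.0236). It was the 1 member probe of 11 called higher there, where 0.925% of 34920 probes were called higher and 1.16% in either direction, and probe 2 is singled out here for that call. The brightest Maf probe, probe 1, read 1.69, 2.06 and 4.69 after anti-DLL4, against 2.90, 0.14, 1.75 and 1.13 after isotype. Those groups overlapped and the difference of 1.76 ± 0.80 did not pass (adjusted p = 0.475). Probe 3, at or near background, differed by 0.76 ± 1.07 (adjusted p = 0.893).

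Probe 2 differed within the 3 shared slides by 6.85, 4.46 and 1.76 in thymocytes. It no longer passed without anti-DLL4 replicate 1 (3.45, adjusted p = 0.0961) or 2 (3.80, adjusted p = 0.0979) and without isotype replicate 1 (3.40, adjusted p = 0.0573) or 2 (3.99, adjusted p = 0.0508). Markers of other cells were higher beside it in anti-DLL4 thymocytes. The 9 NK-cell and innate lymphoid genes summed to 166 to 400 after anti-DLL4 and 32.1 to 86.7 after isotype, with 3 called higher, and the 8 B-cell genes to 93.8 to 361 after anti-DLL4 and 22.6 to 48 after isotype, with 5 called higher. Of the B-cell genes, Pax5 was not well above background on any isotype thymocyte array. The 10 macrophage and monocyte genes summed to 231 to 559 after anti-DLL4 and 134 to 526 after isotype. Their part in the Maf result was not tested.

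In DN cells Maf probe 2 read -0.05, -0.98 and -0.15 after anti-DLL4, against -1.86, -3.73 and -1.60 after isotype. The groups were separate, and the difference of 2.65 ± 0.76 did not pass (adjusted p = 0.116). In DN1 cells it read -2.26, -0.60 and -0.48 after anti-DLL4, against 0.47 and 1.63 after isotype. There the order was the other way round, at -2.13 ± 0.85 (adjusted p = 0.738). The DN1 effect minus the thymocyte effect was -6.11 ± 1.11 for probe 2, the nearest of the 11 probes to passing a test of the difference between populations (adjusted p = 0.0657), and the DN1 effect minus the DN effect was -4.77 ± 1.14 (adjusted p = 0.19). None of the 11 probes passed any of these 3 tests, which called 0.0107%, 0.0893% and 0.137% of probes for DN minus thymocytes, DN1 minus thymocytes and DN1 minus DN.

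By level, Maf probe 2 was highest in isotype DN1 cells, at a mean of 1.05, and lowest in isotype thymocytes, at -3.10. Each neighbour in the order overlapped the next, through anti-DLL4 thymocytes (0.46), anti-DLL4 DN (-0.39), anti-DLL4 DN1 (-1.11) and isotype DN (-2.40). Isotype DN1 cells were above isotype thymocytes by 4.49 ± 0.81 (adjusted p = 0.0178), a call lost without isotype DN1 replicate 1 (5.17, adjusted p = 0.162) or 2 (3.86, adjusted p = 0.252). It did not pass with a fixed slide effect (4.42, adjusted p = 0.35), with quantile normalization (4.32, adjusted p = 0.0575) or in a model of these groups alone (4.49, adjusted p = 0.0837). Probe 1 was instead highest in isotype DN cells, at 5.10, 3.92 and 2.63, and all 6 groups overlapped with their neighbours in level. Its differences were -0.67 ± 0.86 in DN cells (adjusted p = 0.314), where anti-DLL4 arrays read 1.84, 3.35 and 2.52, and -0.26 ± 0.96 in DN1 cells (adjusted p = 1). Probes 1 and 2 correlated at -0.05 over the 18 arrays, while probe 2 and Il1r1 correlated at 0.69.

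**Figure D3:**
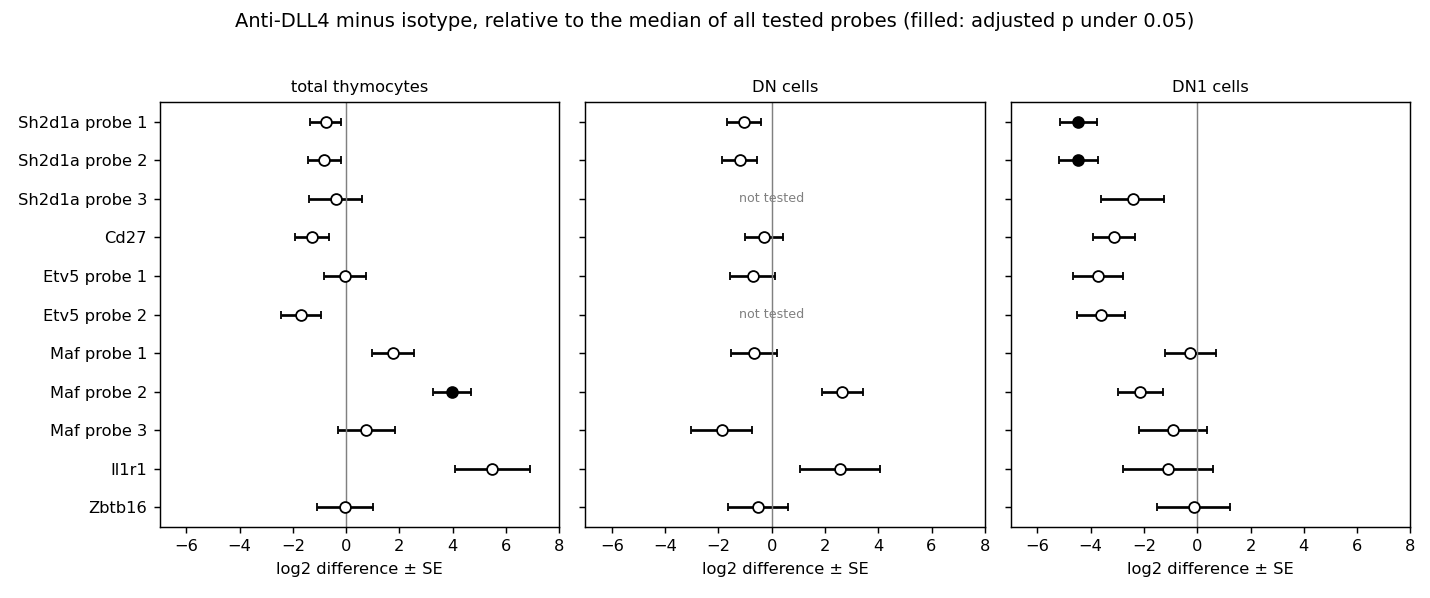
Log2 difference, anti-DLL4 minus isotype and relative to the median of all tested probes, with its SE (horizontal axis), for the 11 member probes (rows), with a panel each for total thymocytes, DN and DN1 cells. Filled points had an adjusted p under 0.05: Maf probe 2 in thymocytes at 3.98, and Sh2d1a probes 1 and 2 in DN1 cells at -4.47 and -4.46.

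Etv5, an ETS-family factor, read below 0 on all 18 arrays. Its probes lie at chr16:22298589-22298648 and chr16:22297560-22297619 on the minus strand of mm8. In DN1 cells probe 1 read -5.19, -6.21 and -5.80 after anti-DLL4, against -3.08 and -0.88 after isotype. Probe 2 read -7.30, -9.06 and -6.57 after anti-DLL4, against -4.33 and -3.66 after isotype, and only replicate 3 of its anti-DLL4 arrays was well above background. On both probes the anti-DLL4 arrays lay below the isotype arrays. The differences of -3.72 ± 0.93 and -3.62 ± 0.90 did not pass (adjusted p = 0.217 each). Since 2 of the 3 anti-DLL4 readings of probe 2 were at background, its fitted size depends on the background signal of those arrays. Within slides probe 1 differed by -2.78 and -4.79.

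In thymocytes Etv5 probe 1 read -3.97, -6.37 and -5.93 after anti-DLL4, against -3.93, -5.18, -5.71 and -4.99 after isotype, which overlapped (difference -0.05 ± 0.78, adjusted p = 0.788). Probe 2 was not well above background on any of the 3 anti-DLL4 arrays and was so on 3 of 4 isotype arrays. Its means were -8.31 after anti-DLL4 and -6.17 after isotype, and the difference did not pass (adjusted p = 0.196). Taken on these means alone, they lay at least 2.13-fold apart. That bound sets the isotype mean against a floor, which on each anti-DLL4 array is the dimmest probe well above background or, if higher, Etv5 probe 2 itself. It takes no account of the spread between arrays and is not a lower limit on the effect. With normexp background correction the difference was 0.03. In DN cells probe 1 read -6.04, -5.98 and -4.02 after anti-DLL4, against -3.85, -2.96 and -5.12 after isotype. These overlapped, with a difference of -0.72 ± 0.83 (adjusted p = 0.277). Probe 2 was measured on too few DN arrays to be tested. Isotype DN1 cells headed the order of both probes, at means of -1.98 for probe 1 and -3.99 for probe 2. For probe 1 every neighbour in the order overlapped the next.

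Zbtb16 was dim in every group and gave no detectable difference. Its probe maps to the minus strand of chromosome 9 in mm8, where the file's coordinates, chr9:48417261-48469277, span 52017 bases for a 60-base probe. It read -7.77, -6.35 and -5.37 in anti-DLL4 thymocytes, against -6.16, -5.18, -6.52 and -6.22 in isotype thymocytes. In DN cells it read -6.91, -1.94 and -6.14 after anti-DLL4, against -3.78, -2.60 and -5.15 after isotype, so anti-DLL4 replicate 2 was the brightest of all arrays. In DN1 cells it read -5.56 and -7.03 after anti-DLL4, with 1 outlier spot left out, against -5.30 and -6.97 after isotype. Antibody groups overlapped in all 3 populations. The differences were -0.06 ± 1.05 in thymocytes, -0.51 ± 1.12 in DN cells and -0.13 ± 1.37 in DN1 cells (adjusted p = 0.842, 0.503 and 1). All neighbours in the order of the 6 groups overlapped, isotype DN cells being highest at a mean of -3.84 and anti-DLL4 thymocytes lowest at -6.50.

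In DN cells no member probe of the 9 tested was called, although 3.72% of 34253 probes were called there, 2.33% higher and 1.39% lower, and 9867 probes had an unadjusted p under 0.05. That share depended on single arrays: it was 23.5% without isotype DN replicate 3, 1.77% without replicate 1, 1.85% without replicate 2 and 0.629% without replicates 1 and 2 together. Leaving out anti-DLL4 DN replicate 1, 2 or 3 gave 1.52%, 2.42% and 1.51%. Maf probe 2 and the overlapping Sh2d1a probes 1 and 2 had an unadjusted p under 0.05 without overlap of the antibody groups. The share of all probes that met both conditions was not computed, and 9867 of 34253 met the first. No result about the members is therefore read from it. Sh2d1a probe 2 differed by -1.20 ± 0.65 (adjusted p = 0.102), and by -2.05 without anti-DLL4 DN replicate 2, where it passed (adjusted p = 0.0303). Maf probe 3 read -7.11, -7.48 and -6.93 after anti-DLL4, none of them well above background, against -1.50, -4.78 and -7.65 after isotype. The groups overlapped through isotype replicate 3. Maf probe 3 had means of -7.17 after anti-DLL4 and -4.65 after isotype, and its fitted difference of -1.88 ± 1.14 did not pass (adjusted p = 0.16). Against the floor described for Etv5 probe 2, these means lay at least 2.34-fold apart. That bound takes no account of the spread between arrays and is not a lower limit on the effect. Without isotype DN replicate 3 the fitted difference of Maf probe 3 was -3.32, which passed (adjusted p = 0.0139). Between populations, no member probe was called for DN cells against thymocytes after either antibody, for isotype DN1 against isotype DN cells, or for anti-DLL4 DN1 against anti-DLL4 DN cells. The percentages of all probes called there were 0.28% for DN against thymocytes after anti-DLL4 and 1.13% after isotype, 1.1% for isotype DN1 against isotype DN, and 0% for anti-DLL4 DN1 against anti-DLL4 DN, where limma called 0 of 35175 probes and 1525 had an unadjusted p under 0.05.

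The wider pathways of the 6 genes were read through 6 gene lists, each gene by its brightest probe. Effector genes of innate-like T cells had the most calls of the 6 lists in thymocytes, where 5 of 12 were called higher and 0 lower, with a median difference of 3.00 against 0 for all probes and 0.925% of all probes called higher. Without any 1 of the anti-DLL4 replicates 2 of 12 were called, and without isotype replicate 2, 3 of 12. Cxcr6, a chemokine receptor of NKT and other tissue-homing T cells, averaged 5.99 after anti-DLL4 and 1.50 after isotype, a difference of 4.90 ± 0.48 (adjusted p = 0.000761). Il18r1, the interleukin-18 receptor, averaged 3.25 after anti-DLL4 and -1.52 after isotype, a difference of 5.19 ± 0.79 (adjusted p = 0.00667). Ifng, the cytokine of the CD27-positive gamma-delta branch, averaged 4.89 after anti-DLL4 and -1.46 after isotype, a difference of 6.76 ± 1.29 (adjusted p = 0.0265). In DN cells 4 of 12 were called higher, with a median of 2.75, where 2.33% of all probes were called higher. Cxcr3, the receptor for interferon-induced chemokines, differed by 4.66 ± 0.68, Il18r1 by 4.75 ± 0.84 and Cxcr6 by 3.47 ± 0.51 (adjusted p = 0.00409, 0.0138 and 0.00654). Several of these genes are also expressed by NK cells, whose summed markers were 94.7 to 131 in anti-DLL4 DN cells and 20.9 to 57.8 in isotype DN cells, with 4 of 9 called higher. In thymocytes the NK-cell sums were 166 to 400 after anti-DLL4 and 32.1 to 86.7 after isotype, with 3 of 9 called higher. The gamma-delta T-cell receptor probes summed in thymocytes to 27.8 to 32.5 after anti-DLL4 and 22.7 to 77.4 after isotype, with 0 of 4 called. The part of NK cells and gamma-delta cells was not tested.

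Among transcriptional and signalling regulators of these lineages, 6 of 19 were called higher and 2 lower in DN cells with all arrays. Their median was 2.49, and of all probes 2.33% were called higher and 1.39% lower. The lower calls fell to 0 without anti-DLL4 DN replicate 1 or 3, or without isotype DN replicate 1 or 2. Blk, a SRC-family kinase of B cells and gamma-delta cells, averaged 2.53 after anti-DLL4 and -1.05 after isotype, a difference of 4.23 ± 0.59 (adjusted p = 0.00346). Relb, an NF-kappaB subunit, differed by 4.15 ± 0.63 (adjusted p = 0.00605) and Egr2, a zinc-finger factor induced by antigen-receptor signals, by 4.45 ± 0.72 (adjusted p = 0.00788). Tcf7, the Notch-induced factor TCF-1, was among those called lower, at -2.10 ± 0.60 (adjusted p = 0.0196), and is named here after its values were seen. B-cell markers moved beside them: 8 B-cell genes summed to 608 to 841 in anti-DLL4 DN cells and 38.7 to 45.9 in isotype DN cells, with 7 called higher, and 10 dendritic-cell genes to 533 to 600 in anti-DLL4 and 38.7 to 77 in isotype DN cells, with 5 called higher. The gamma-delta T-cell receptor probes summed to 40.7 to 86.2 in anti-DLL4 and 197 to 227 in isotype DN cells, with 0 of 4 called. Of these probes, Tcrg-V2 was not well above background on any anti-DLL4 DN array. The part of B cells, dendritic cells and gamma-delta cells was not tested. In thymocytes 1 of 19 regulators was called, Il7r, the interleukin-7 receptor chain, at 2.64 ± 0.45 (adjusted p = 0.0245).

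The immediate partners of the members had 7 calls in DN cells, all higher, and 1 in thymocytes, where 2.33% and 0.925% of all probes were called higher. Of 11 SLAM receptors and SAP signalling genes besides Sh2d1a, 2 were called higher in DN cells and 0 in thymocytes. These were Inpp5d, the SHIP-1 phosphatase, at 3.25 ± 0.48 (adjusted p = 0.00657) and Slamf7, a SLAM-family receptor, at 7.66 ± 1.54 (adjusted p = 0.0199), which was well above background on 1 of 3 isotype DN arrays. Of 7 genes of CD27 ligand and signalling, 2 were called higher in DN cells, the adaptor Traf5 at 5.98 ± 0.77 and the ubiquitin ligase Birc3 at 4.34 ± 0.64 (adjusted p = 0.00126 and 0.00463), and 0 in thymocytes. Of 14 interleukin-1 family receptors and signalling genes, Il1b at 4.78 ± 0.87 and the kinase Irak4 at 3.40 ± 0.67 were called higher in DN cells (adjusted p = 0.0161 and 0.0332), and the kinase Irak2 at 4.38 ± 0.81 in thymocytes (adjusted p = 0.0268). Of 12 tested relatives of Etv5 and Maf and RAS-ERK feedback genes, Dusp6, an ERK phosphatase, was called in DN cells at 4.44 ± 0.62 (adjusted p = 0.00326) and 0 in thymocytes. The medians of these 4 lists were 1.94, 2.64, 1.56 and 0.65 in DN cells and 1.01, 0.18, 1.26 and -0.25 in thymocytes.

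The number of list calls in DN cells depended on which arrays were included. Over the 6 lists, 17 genes were called higher and 2 lower with all arrays, against 1 higher and 0 lower without isotype DN replicates 1 and 2 together, an alternative chosen after seeing the data that leaves 1 isotype DN array, assumed to vary like the other groups. That 1 gene was Irak4. List medians without those arrays were 0.65 for regulators, 2.27 for effector genes, 1.15 for SLAM and SAP genes, 1.14 for CD27 genes, 1.07 for interleukin-1 genes and 0.01 for relatives of Etv5 and Maf. With 1 array left out, 11 were called higher without isotype DN replicate 1, 10 without replicate 2 and 25 without replicate 3, and 12, 13 and 10 without anti-DLL4 DN replicates 1, 2 and 3. The lower calls were 0, 0 and 6 without isotype DN replicates 1, 2 and 3, and 0, 1 and 0 without anti-DLL4 DN replicates 1, 2 and 3. The 6 erythroid marker genes summed to 4.19 to 21.5 in anti-DLL4 DN cells, against 631, 919 and 13.2 on isotype DN replicates 1, 2 and 3, so the pair left out together was also the pair high in erythroid signal. The part of that signal in the list counts was not tested. In thymocytes the 6 lists held 7 calls with all arrays, and 3, 2 and 3 without anti-DLL4 replicates 1, 2 and 3 or 6, 5, 4 and 7 without isotype replicates 1 to 4.

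In DN1 cells, where Sh2d1a itself was called, 0 genes of any of the 6 lists passed the limma test, in a comparison that called 0.109% of all probes. The list medians there were -0.33 for regulators, -0.84 for effector genes, -0.19 for SLAM and SAP genes, 0.23 for CD27 genes, -0.24 for interleukin-1 genes and -0.20 for relatives of Etv5 and Maf, while 1914 of all probes tested had an unadjusted p under 0.05.

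**Figure D4:**
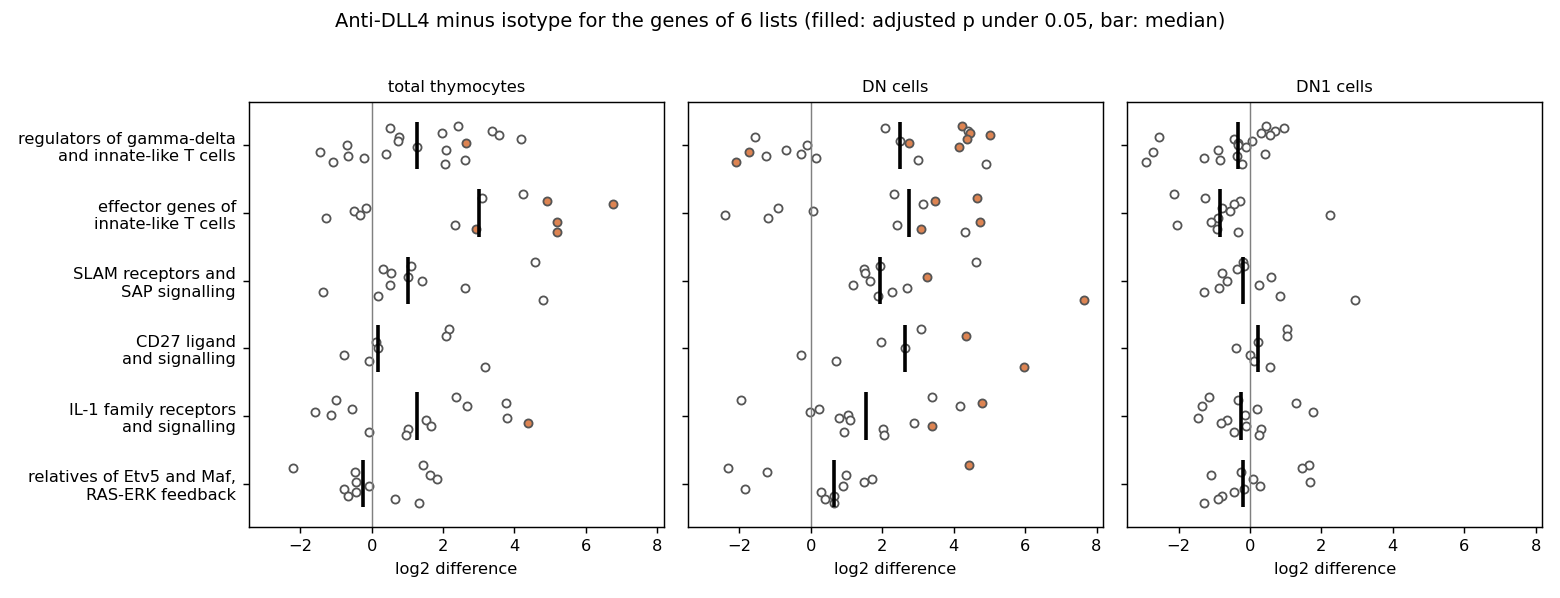
Log2 difference, anti-DLL4 minus isotype and relative to the median of all tested probes (horizontal axis), for each gene of the 6 lists (rows), with a panel each for total thymocytes, DN and DN1 cells. Filled points had an adjusted p under 0.05 and bars are list medians; effector genes have 5 filled points in thymocytes and 4 in DN cells, and no list has any in DN1 cells.

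The genes whose pattern was most like that of each member were taken by Pearson's r of log2 levels over the 18 arrays, which share populations, antibody groups and scaling, so r is a description only. Nearest to Sh2d1a were Ldhb (0.924), Cd247 (0.918) and Skap1 (0.909). Nearest to Cd27 were Satb1 (0.962), Cd247 (0.937) and Trbv14 (0.928), so Cd247, the zeta chain of the T-cell receptor complex, was near both. Nearest to Il1r1 were 1700029J07Rik (0.931), Kit (0.922), the stem-cell factor receptor, and Gcnt1 (0.919). For Maf probe 1 they were Mknk1 (0.891), Tbx2 (0.891) and Usp36 (0.886), and for Zbtb16, over 17 arrays, Ninj2 (0.905), Rnase1 (0.899) and Ccbe1 (0.892). Etv5 had the loosest neighbours, Cpa3 (0.769), a mast-cell carboxypeptidase, Sirpa (0.761) and Cbfb (0.752).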

How the data were processed

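Total RNA was amplified in 2 rounds and labelled with Cy3, per the labels. The deposited scanner files hold an intensity per spot. Per the file headers, Agilent Feature Extraction 9.5.3.1 made them (version 9.5 in the submitters' processing notes). They were background-subtracted but not normalized between arrays, with flags of 0 or 1 as scores for spots well above background, outlier and saturated. Probe positions are those of mm8 in the files. A deposited value matrix of the series holds a ratio per probe and array, whose scaling is not given in the sources used here. Its log2 values, set against scanner values centred per probe, ran in the same direction on all 18 arrays, with 69.7% to 70.7% of them within 0.05 and column medians of 0.638 to 1.423. Its centring is not known for the rest.

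The 75th percentile of an array's non-control spots was subtracted from log2 processed signals, outlier spots were left out and spots of 1 probe averaged. Probes well above background on at least 2 of 18 arrays (38962) entered 1 linear model with 6 group means (limma 3.58.1, lmFit and eBayes, R 4.3.3, the data.table package in version 1.17.8). A comparison tested the probes that passed this flag on 2 or more arrays of its groups, and the p-values, all two-sided, were adjusted by the Benjamini-Hochberg method over all of them. The scripts were tested on simulated data. The number of arrays limits the precision. Symbols came through the RefSeq gene list (assembly GRCm38.p6), from which no position was taken. Members and lists were chosen with earlier results of these data known. From each list and comparison the text names at most 3 called genes, those with the smallest adjusted p, and Tcf7 besides, chosen after its values were seen; other called genes are counted but not named. Genes most alike were sought among probes with that flag on 12 or more arrays. Of 18 gamma-delta receptor symbols, 5 are on the array and they stand for 4 probes. All of these are of gamma-chain genes, and none of the delta-chain symbols was found on the array. Slides (6 in all, scanned on 1 day) were the only batches known, and alternatives covered scaling, background, filters, blocks, weights and left-out arrays.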

Additional observations from a re-analysis of the deposited data

How the results depend on the processing

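The number of the 6 genes called by their brightest probe was 0 in thymocytes, 0 in DN cells and 1 in DN1 cells. In thymocytes it became 1 (Il1r1) with the slide as a fixed block, the replicate block or array weights. In DN1 cells it became 0 with normexp background, the mean of probes, the slide as a fixed block, the replicate block, only the groups compared, and without isotype DN replicates 1 and 2 together. Sh2d1a probe 1 then differed by -3.53 to -4.50, and the direction held under each alternative run. Array weights called 6 genes in DN cells, where they called 56.2% of all probes, 6 for isotype DN against isotype thymocytes (44%), 1 in each test between populations of the treatment effect, and 2 in the remaining population comparisons other than anti-DLL4 DN1 against anti-DLL4 DN, which kept 0. Normexp gave 1 for isotype DN against isotype thymocytes, and the slide block 1 for isotype DN1 against isotype DN and 0 for anti-DLL4 DN1 against anti-DLL4 thymocytes. Only the groups compared gave 0 for isotype and for anti-DLL4 DN1 against thymocytes. With 1 array left out, counts ranged from 0 to 1 in thymocytes, in DN1 cells, for DN1 minus thymocytes, and for isotype DN1 against isotype DN and against isotype thymocytes, from 0 to 2 for isotype DN against isotype thymocytes, and from 1 to 2 for anti-DLL4 DN1 against anti-DLL4 thymocytes. The cause of these shifts was not tested.

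Whether equal replicate numbers pair the samples is not known. Deviations of same-numbered arrays correlated at -0.47, 0.04 and -0.26 (thymocytes), -0.26, -0.08 and -0.06 (DN) and 0.06 and -0.17 (DN1). In groups this small these values cannot decide it, and the pair of isotype DN1 arrays deviates by equal and opposite amounts. Anti-DLL4 and isotype thymocyte arrays of replicates 1, 2 and 3 shared a slide with their same-numbered array. With the replicate block Sh2d1a probe 1 in DN1 cells was -4.46 (adjusted p = 0.415), Maf probe 2 in thymocytes 4.32 (0.109) and Il1r1 in thymocytes 7.31 (0.0316). The block cannot be fitted to comparisons between populations. Maf probe 2 in thymocytes was also lost with quantile normalization (3.67, adjusted p = 0.072), the slide block (4.43, 0.0618) and only the groups compared (3.98, 0.0983).

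Only differences that had not passed changed sign. In thymocytes these were Zbtb16 (quantile 0.04, normexp 0.12, mean of probes 0.35, slide block 0.04, array weights 0.07), Etv5 probe 1 (normexp 0.44, brightest probe per gene 0.01, replicate block 0.02), Etv5 probe 2 (normexp 0.03) and Sh2d1a probe 3 (normexp 0.33, slide block 0.34, replicate block 0.20). In DN cells they were Cd27 (normexp 0.72, no filter 0.08, slide block 0.20), Etv5 probe 1 (quantile 0.02), Maf probe 1 (normexp 0.39, mean of probes 0.23) and Zbtb16 (quantile 0.03, mean of probes 0.14, slide block 0.39). In DN1 cells they were Maf probe 1 (normexp 0.04, slide block 0.20) and Zbtb16 (normexp 0.79, deposited ratios 0.40, slide block 0.77). Without isotype DN replicates 1 and 2, Etv5 probe 1 was 0.10, Maf probe 1 0.27 and Zbtb16 0.49 in DN cells. With 1 array left out, Zbtb16 ranged from -0.39 to 0.41 in thymocytes, -2.10 to 0.43 in DN and -0.88 to 0.66 in DN1 cells, Etv5 probe 1 from -0.95 to 0.44 and Sh2d1a probe 3 from -1.57 to 0.36 in thymocytes, Cd27 from -1.02 to 0.30 in DN cells, and Maf probe 1 from -0.58 to 0.10 in DN1 cells.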

Other observations

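A further probe carries the expressed-sequence name AI467657 in the files, which the RefSeq gene list gives as an older symbol of Zbtb16. It lies outside the 11 probes taken by name. It was well above background on all 18 arrays, and read -5.06, -4.13 and -1.44 in anti-DLL4 thymocytes, against -2.20, -4.97, -3.53 and -4.83 in isotype thymocytes. In DN cells it read -3.70, -3.22 and -2.80 after anti-DLL4, against -2.14, -2.82 and -4.03 after isotype, and in DN1 cells -4.36, -5.71 and -4.54 after anti-DLL4, against -4.10 and -4.63 after isotype. The antibody groups overlapped in each population. The differences were 0.76 ± 0.84, 0.40 ± 0.90 and -0.48 ± 1.00 (SE, limma adjusted p = 0.861, 0.875 and 1), so this probe, like the named one, gave no call.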
